A study of Homo sapiens with 28 samples.

Results

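The 8 genes described here encode enzymes and regulators of cholesterol synthesis: the transcription factor genes SREBF1 and SREBF2, the sterol-regulated brake INSIG1, and the pathway enzymes HMGCS1, IDI1, FDFT1, SQLE and CYP51A1. They were chosen by gene symbol, and each matched 1 row among the 16482 genes of the table of all reads and 1 row among the 13029 genes of the table of T>C reads, the reads that carry thymine-to-cytosine conversions. None of the 8 is an uptake receptor, so sterol uptake was described from a separate list. The files identify the genes as ENSG00000072310 (SREBF1, chromosome 17), ENSG00000198911 (SREBF2, chromosome 22), ENSG00000186480 (INSIG1, chromosome 7), ENSG00000112972 (HMGCS1, chromosome 5), ENSG00000067064 (IDI1, chromosome 10), ENSG00000079459 (FDFT1, chromosome 8), ENSG00000104549 (SQLE, chromosome 8) and ENSG00000001630 (CYP51A1, chromosome 7).

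Cells build cholesterol from acetyl-CoA through mevalonate, isoprenoids and squalene. When sterols are scarce, the membrane-bound SREBP precursors are escorted by SCAP from the endoplasmic reticulum to the Golgi, cleaved there by the proteases MBTPS1 and MBTPS2, and the released fragments enter the nucleus and activate the synthesis and uptake genes. INSIG proteins hold the SCAP-SREBP complex back when sterols are plentiful, and INSIG1 is itself a target of SREBP, as SREBF2 is.

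The libraries came from MDA-MB-453, a human breast cancer line of the luminal androgen receptor type, treated for 3 h with DMSO, JQ1, IBET151, JQ1-VHL or IBET151-VHL. JQ1 and IBET151 block the bromodomains by which BET proteins bind acetylated chromatin, and the VHL names mark forms of them that recruit the VHL ubiquitin ligase; the doses are not given in the sources used here. All 10 groups received 0.1 mM 4-thiouridine for the last 60 min, so a T>C read is taken to mark RNA made in that hour. Each culture was split with digitonin into a nuclear (Nuc) and a cytoplasmic (Cyto) fraction. Drosophila S2 cells, at 10%, were mixed into every group before the split. Each group had 3 libraries except IBET151, which had 2 in each fraction, and all come from 1 cell line. The labels do not say that replicates were separate cultures, so p-values measure only the spread between these samples.

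Cytoplasmic libraries held 30647584 to 68475299 reads, of which 82264 to 379401 were T>C reads, and nuclear libraries held 17851589 to 38658448 reads, of which 214725 to 1928012 were T>C reads. All 10 luminal markers looked at were present in DMSO cells (GATA3 averaged 45838 scaled reads in the cytoplasm). Of 10 markers of other cells, CD3E and PECAM1 had no row, and KRT14, KRT5, COL1A2, ACTA2 and PTPRC averaged at most 3.64 in DMSO cytoplasm. VWF averaged 21.3 there, CD68 31.3 and COL1A1 1620. Their sum ranged from 1226 to 2574 in DMSO cytoplasm and from 1514 to 2062 with IBET151-VHL. Several nuclear libraries stood apart. T>C reads made up 8.02%, 6.34% and 2.25% of reads in nuclear DMSO replicates 1, 2 and 3 and 6.67%, 5.69% and 1.94% in the matching JQ1 libraries. Nuclear replicate 1 libraries, other than that of IBET151, had low scaled values in general. The library numbers in the titles were grouped here into 4 runs, named A to D, that follow the replicate layout. Gaps between the numbers do not mark these runs, since the widest gap lies inside run D, and the titles name no batch. Run A holds replicate 1, run B replicate 2 with IBET151 replicate 1, run C replicate 3 of the VHL compounds with IBET151 replicate 2, and run D replicate 3 of DMSO and JQ1, so replicates 3 of DMSO and of the VHL compounds lie in different runs. Differences within runs are therefore given beside the nuclear comparisons.

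The promoters of 3 members are shown here: SREBF2, whose new nuclear RNA fell most under both VHL compounds, and INSIG1 and IDI1, whose changes were the highest of the members. Each is the 250 bases before the transcript's start, from RefSeq (GRCh38.p14, newer than the GRCh37 build that the submitters' processing notes name), 5′ to 3′ on the gene's strand. Capitals mark the sterol regulatory element TCACNCCAC, to which SREBPs bind, and CCAAT, to which NF-Y binds, on either strand (CCAAT reads ATTGG on the other). IDI1 has 3 RefSeq starts, and the one with the most CCAAT matches is shown.
SREBF2, chr22:41832855-41833104, plus strand: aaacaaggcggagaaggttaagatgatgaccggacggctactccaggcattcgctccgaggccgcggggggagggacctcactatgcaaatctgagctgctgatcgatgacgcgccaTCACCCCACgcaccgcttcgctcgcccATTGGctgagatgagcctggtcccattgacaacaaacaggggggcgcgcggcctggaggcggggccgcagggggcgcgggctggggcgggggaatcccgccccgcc
INSIG1, chr7:155297628-155297877, plus strand: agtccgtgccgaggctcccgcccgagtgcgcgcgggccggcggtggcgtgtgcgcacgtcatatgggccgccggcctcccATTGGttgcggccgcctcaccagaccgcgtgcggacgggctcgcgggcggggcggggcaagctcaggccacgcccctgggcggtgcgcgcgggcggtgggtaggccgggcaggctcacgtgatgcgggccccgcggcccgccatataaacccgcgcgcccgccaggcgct
IDI1, chr10:1048887-1049136, minus strand: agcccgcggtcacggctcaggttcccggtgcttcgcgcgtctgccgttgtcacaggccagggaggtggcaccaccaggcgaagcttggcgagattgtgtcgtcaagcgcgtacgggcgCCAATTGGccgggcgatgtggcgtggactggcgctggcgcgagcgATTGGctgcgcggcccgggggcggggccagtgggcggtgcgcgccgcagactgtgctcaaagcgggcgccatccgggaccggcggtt
SREBF2 holds TCACNCCAC and, downstream of it, ATTGG. Over the 9 windows of 300 bases (250 before to 50 after the start) listed for 6 of the 8 members, TCACNCCAC matched only in SREBF2, and in 1.39% of 27305 genes over all 35116 RefSeq promoter windows. CCAAT matched in any window of 4 of the 6 genes, against 39.7% of genes, and the Sp1 motif GGGCGG in 6 of 6, against 48.3%. A match is a description of letters, and the INSIG1 and IDI1 windows hold no TCACNCCAC.

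In DMSO cells the mRNAs of the enzymes, INSIG1 and SREBF2 were well counted, and SREBF1 was close to the limit of counting. These are 3′ end reads, 1 per transcript, so levels are comparable between genes without a length term. HMGCS1, the enzyme that joins acetyl-CoA units into HMG-CoA, had 8635, 14092 and 4748 scaled reads in the 3 DMSO cytoplasmic libraries. INSIG1 had 4106, 7733 and 2837, and FDFT1 (squalene synthase) 5205, 7522 and 2817. The ranges of these 3 genes overlapped, as did those of IDI1 (1195, 6167 and 2246), which isomerises isopentenyl diphosphate, and CYP51A1 (1349, 2693 and 1768), the lanosterol demethylase. SQLE, the rate-limiting squalene epoxidase, had 1892, 1837 and 860, beside 1795, 1925 and 816 for SREBF2. SREBF1 had 27.4, 32.9 and 23.3, below every other member in every library, and stayed between 5.43 and 36.6 over all 28 libraries. No SREBF1 read of 493 in the cytoplasm carried T>C, which allows a share of up to 0.609%, and 9 of 206 did in the nucleus, so its new RNA was not described further. Intervals and limits of this kind cover counting error only.

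Relative to the RNA mass of each fraction, to which the ERCC standard was added, 3 members were higher in the DMSO nucleus than in the DMSO cytoplasm. SQLE had 5819, 15512 and 14761 nuclear scaled reads and was 2.93 log2 units higher (limma over 28 libraries, SE 0.57, adjusted p = 4.3e-05). SREBF2 was 2.67 log2 units higher (SE 0.55, adjusted p = 0.00010) and CYP51A1 2.43 (SE 0.56, adjusted p = 0.00042). HMGCS1 (0.88), FDFT1 (0.80), INSIG1 (0.70), IDI1 (0.70) and SREBF1 (-0.12) did not pass. Of 14458 genes tested, 47.9% passed as higher in the nucleus, with a median log2 difference of 1.26, so 3 of 8 is a share near the background. Among T>C reads all 7 members tested were higher in the nucleus, from 2.58 for INSIG1 to 5.57 for SREBF2. That was so for 93.6% of 12067 genes, with a median of 3.62. Both fits took the nuclear and cytoplasmic parts of a culture as separate libraries, without their pairing.

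The share of a gene's reads that carry T>C is used here as a relative reading of new RNA. This share is not the new part of the pool itself, since the background of conversions is unknown, and rankings of genes are rankings of the share. In DMSO nuclei it was 14.3%, 17.0% and 4.52% for IDI1 and 9.42%, 11.8% and 4.59% for INSIG1, above the other members in each library, SREBF1 with its few reads aside. SQLE (3.39%, 4.90% and 0.986%), SREBF2 (4.76%, 3.97% and 0.963%) and CYP51A1 (4.02%, 4.62% and 1.56%) were the lowest. The median gene had 7.43%. In the cytoplasm INSIG1 (1.88%, 2.14% and 2.46%) and IDI1 (2.36%, 1.89% and 1.82%) were again highest and FDFT1 (0.433%, 0.932% and 0.257%) had the lowest mean of the 6 members tested, with a median gene at 1.05%. In nuclear replicate 1 FDFT1 (9.0%) came close to INSIG1, so these neighbours did not differ beyond their spread.

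**Figure D1:**
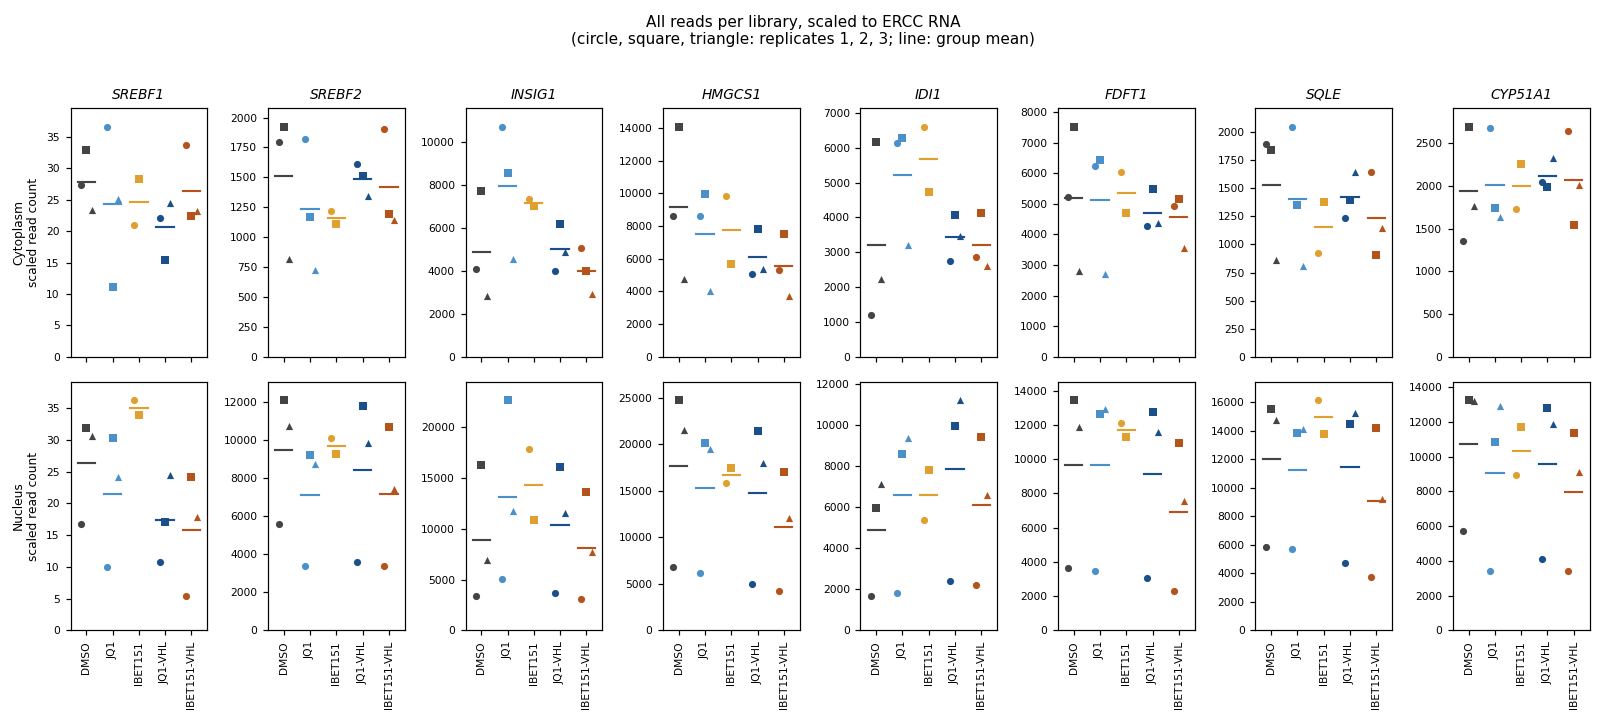
All reads of the 8 members in each of the 28 libraries (y axis: scaled read count, linear from 0, a separate scale per panel), cytoplasm above and nucleus below, with the 5 treatments along the x axis, a symbol per library and a line at each group mean. The DMSO libraries spread widely for some members, for example from 1195 to 6167 for cytoplasmic IDI1, and nuclear replicate 1 (circles) sits lowest for every member in each group of 3 libraries.

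In all reads of the cytoplasm, the pool present after 3 h, 0 of 8 members passed under any compound. Over 12470 genes, 4.82% passed with JQ1, 2.52% with IBET151, 12.9% with JQ1-VHL and 15.8% with IBET151-VHL, mostly as lower. The values nearest a rise were those of IDI1 and INSIG1 with the parent inhibitors. IDI1 had 6138, 6287 and 3202 scaled reads with JQ1 and 6607 and 4734 with IBET151, against 1195, 6167 and 2246 with DMSO. That is 0.97 log2 units (SE 0.44, adjusted p = 0.31) and 1.13 (SE 0.49, adjusted p = 0.34), and the groups overlap. The value depends on the DMSO libraries: without DMSO replicate 2, the highest of them, the IDI1 difference with JQ1 is 1.60 (adjusted p = 0.023), and within runs A, B and D it is 2.36, 0.03 and 0.51. INSIG1 had 10721, 8570 and 4552 with JQ1 and 7342 and 7001 with IBET151, against 4106, 7733 and 2837, a difference of 0.74 (SE 0.35, adjusted p = 0.33) and 0.68 (SE 0.39, adjusted p = 0.53). At an unadjusted p under 0.05 limma passed 1 member with JQ1, 1 with IBET151 and 0 with the VHL compounds. The share of all genes at that unadjusted threshold is not given here. After adjustment edgeR and DESeq2 passed 0 members.

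HMGCS1 had the largest negative differences of the members in the cytoplasm under the VHL compounds: 5084, 7830 and 5396 with JQ1-VHL and 5327, 7547 and 3715 with IBET151-VHL, against 8635, 14092 and 4748 with DMSO. The difference was -0.48 log2 units (SE 0.40, adjusted p = 0.59) and -0.65 (SE 0.40, adjusted p = 0.39). When the run of library numbers was fitted as a block, 5 tests passed: INSIG1 higher with JQ1 (0.74, adjusted p = 0.0499), HMGCS1 lower with JQ1-VHL (-0.71, adjusted p = 0.0025), and HMGCS1 (-0.88, adjusted p = 0.00042), SQLE (-0.69, adjusted p = 0.022) and FDFT1 (-0.39, adjusted p = 0.041) lower with IBET151-VHL. With that block 1.82% of genes passed as higher with JQ1, and 26.3% and 28.1% as lower with JQ1-VHL and IBET151-VHL. SREBF2 stayed within 0.29 log2 units of DMSO under every compound and SREBF1 within 0.42, neither passing.

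Nuclear pools gave the same count of 0 of 8 under every compound, against 0.0694% (JQ1), 0.0971% (IBET151), 1.97% (JQ1-VHL) and 4.55% (IBET151-VHL) of 14417 genes. At an unadjusted p under 0.05 limma passed 0 as well, and edgeR and DESeq2 passed 0 after adjustment. IDI1 had 2402, 9953 and 11225 nuclear scaled reads with JQ1-VHL and 2233, 9447 and 6612 with IBET151-VHL, against 1671, 5944 and 7118 with DMSO, or 0.64 and 0.33 log2 units. HMGCS1 had 4183, 17000 and 12078 with IBET151-VHL against 6781, 24774 and 21508, or -0.69 (adjusted p = 0.65). With the replicate number as a block, which the libraries of these 2 groups share, the HMGCS1 difference passed (adjusted p = 0.034), as 43.7% of genes did as lower. With the run as a block, 8 nuclear tests passed, 6 of them as lower. HMGCS1 (-0.69), FDFT1 (-0.51), SREBF2 (-0.48), CYP51A1 (-0.48) and SQLE (-0.46) were lower with IBET151-VHL, where 57.3% of genes were. SREBF2 was lower with JQ1 (-0.47, adjusted p = 0.019), as 32.7% of genes were. INSIG1 was higher with JQ1 (0.61, adjusted p = 0.0021, against 2.4% of genes) and IDI1 with JQ1-VHL (0.69, adjusted p = 0.0052, against 2.34%). Within runs A and B nuclear IDI1 differed from DMSO by 0.52 and 0.74 with JQ1-VHL and by 0.42 and 0.67 with IBET151-VHL, and HMGCS1 by -0.70 and -0.54 with IBET151-VHL.

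**Figure D2:**
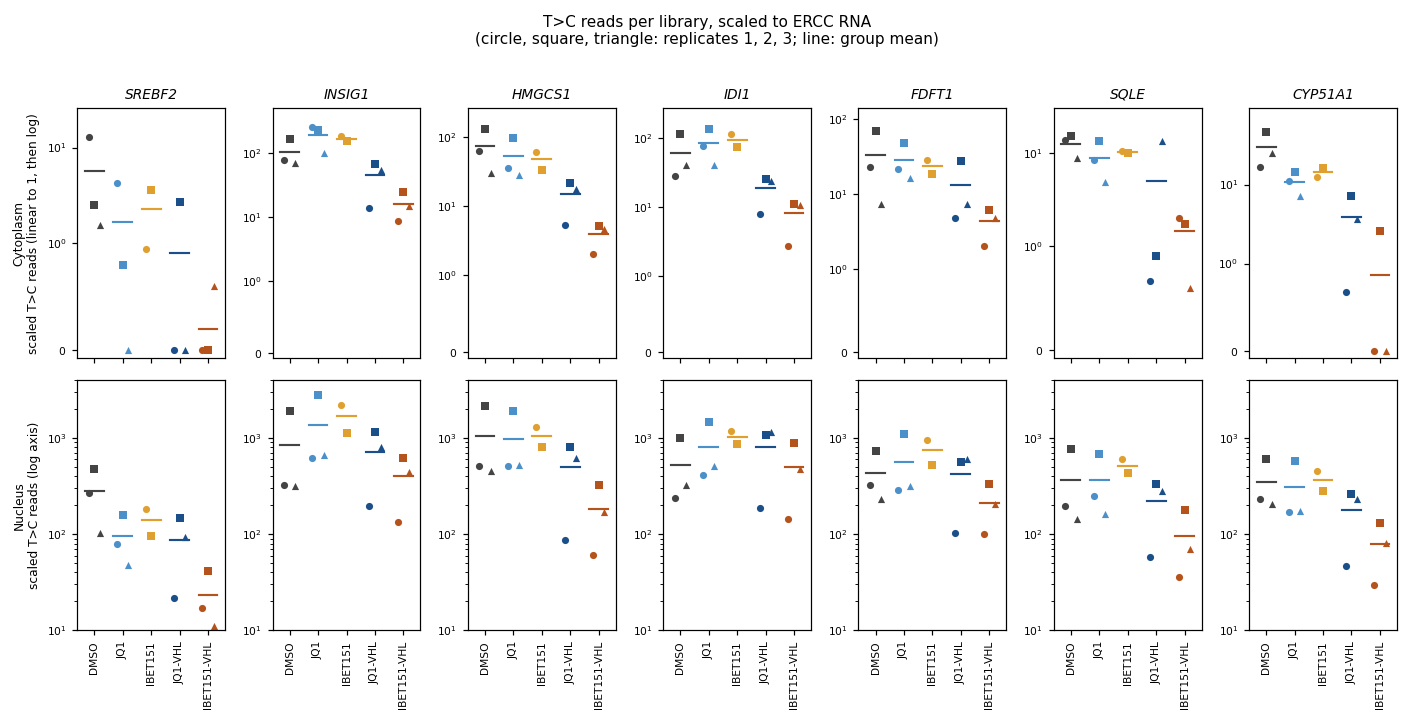
T>C reads of 7 members in each library (y axis: scaled T>C reads, log axis for the nucleus, linear to 1 and then log for the cytoplasm), cytoplasm above and nucleus below, a symbol per library and a line at each group mean. Every cytoplasmic group mean is lowest with IBET151-VHL, at the far right, while 2 of the 3 nuclear IDI1 values with IBET151-VHL (145, 884 and 472) lie within the DMSO range of 239 to 1012.

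New sterol RNA in the cytoplasm fell under both VHL compounds. Of the 6 members with enough T>C reads to test, 5 fell with JQ1-VHL and 6 with IBET151-VHL. Of 6300 genes, 82.8% and 88.3% did so, so these counts are near the background. CYP51A1 had 16.9, 46.4 and 25.4 scaled T>C reads with DMSO, 0.670, 7.25 and 3.71 with JQ1-VHL and 0, 2.59 and 0 with IBET151-VHL. All 6 VHL libraries lie below all DMSO libraries, as they did for 77.4% (JQ1-VHL) and 84.4% (IBET151-VHL) of genes, and the fitted changes were -2.81 (SE 0.63, adjusted p = 0.00027) and -4.20 (SE 0.63, adjusted p = 1.1e-06), the second resting on 3 reads in all and on the pseudocount. HMGCS1 had 63.6, 132 and 30.5 with DMSO, 5.36, 21.7 and 17.8 with JQ1-VHL (-2.21, adjusted p = 0.00090) and 2.02, 5.19 and 4.77 with IBET151-VHL (-3.76, adjusted p = 1.0e-06), again without overlap. INSIG1 went from 77.3, 165 and 69.8 to 14.1, 68.9 and 55.0 (-1.32, adjusted p = 0.015) and to 8.74, 25.1 and 14.9 (-2.61, adjusted p = 2.3e-05).

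IDI1 T>C reads in the cytoplasm were 28.2, 117 and 40.9 with DMSO, 8.05, 25.4 and 23.8 with JQ1-VHL (-1.53, adjusted p = 0.013) and 2.69, 11.2 and 10.7 with IBET151-VHL (-2.69, adjusted p = 7.0e-05). FDFT1 had 22.5, 70.1 and 7.24 with DMSO, and its values with JQ1-VHL (4.69, 27.2 and 7.43) overlapped them (-1.12, adjusted p = 0.11). With IBET151-VHL FDFT1 fell (2.02, 6.05 and 4.77, or -2.27, adjusted p = 0.0020). SQLE fell with both (-1.89, adjusted p = 0.011, and -2.49, adjusted p = 0.0011), although 1 JQ1-VHL library (13.4) lay within the DMSO range of 8.80 to 15.2. The SQLE call with JQ1-VHL was lost in edgeR (-1.29, adjusted p = 0.12) and DESeq2 (-1.32, adjusted p = 0.17) and without JQ1-VHL replicate 1 or 2. The INSIG1 and IDI1 calls with JQ1-VHL were lost without JQ1-VHL replicate 1 (-0.64 and -1.03) or DMSO replicate 2 (-0.94 and -0.95), whereas FDFT1 passed in edgeR (-1.36, adjusted p = 0.025), with the run as a block (-1.64) and without JQ1-VHL replicate 2 (-1.79) or DMSO replicate 3 (-1.89). No call with IBET151-VHL in the cytoplasm was lost when a library was left out. The members' median change was -1.71 with JQ1-VHL and -2.65 with IBET151-VHL, beside -2.42 and -2.89 over all genes tested, and T>C reads were 0.782% of all cytoplasmic reads with DMSO, 0.288% with JQ1-VHL and 0.249% with IBET151-VHL on average. ERCC RNA was added per mass of RNA, so the scaled values do not show changes in cell number or in RNA per cell. SREBF2 had 0 to 16 cytoplasmic T>C reads a library and was under the limit for testing.

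With JQ1 and IBET151 themselves 0 of 6 members passed in the cytoplasm, where 20.6% and 7.29% of genes did. INSIG1 had 251, 230 and 100 scaled T>C reads with JQ1 and 184 and 152 with IBET151 against 77.3, 165 and 69.8, or 0.89 (SE 0.49, adjusted p = 0.17) and 0.79 (SE 0.54, adjusted p = 0.42). CYP51A1 went the other way, with 11.1, 14.3 and 7.10 and with 12.4 and 16.4 against 16.9, 46.4 and 25.4 (-1.30, adjusted p = 0.13, and -0.89, adjusted p = 0.50). Neither CYP51A1 group overlaps DMSO, which was so for 41% and 34.5% of genes in that direction. At an unadjusted p under 0.05, limma passed 1 member with JQ1 and 0 with IBET151. With JQ1 CYP51A1 passed as lower with a pseudocount of 5 (-1.06, adjusted p = 0.019). When only the 2 groups compared were fitted, CYP51A1 (-1.30, adjusted p = 0.041) and INSIG1 (0.89, adjusted p = 0.046) passed with JQ1. Shares of all genes at the unadjusted threshold and in these fits are not given here.

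Nuclear T>C changes ran from -1.81 to 0.53 log2 units across the 7 members with JQ1-VHL and from -3.50 to -0.12 with IBET151-VHL. With JQ1 they ran from -1.48 to 0.85 and with IBET151 from -0.84 to 1.44. IBET151 shares only run B with DMSO, where its range was -1.39 to 0.38. SREBF2 had 267, 481 and 103 scaled T>C reads with DMSO, 21.4, 146 and 93.3 with JQ1-VHL and 17.1, 41.5 and 11.2 with IBET151-VHL. It fell by 1.81 log2 units (3.52-fold lower, SE 0.72, adjusted p = 0.023) and 3.50 (11.3-fold lower, SE 0.72, adjusted p = 3.6e-06), and the IBET151-VHL libraries lie below DMSO without overlap, as for 81.7% of genes. With JQ1-VHL 1 of 7 members, SREBF2, fell, against 60.5% of 12059 genes. That call was lost without DMSO replicate 1 (-1.73, adjusted p = 0.069) or 2 (-1.30, adjusted p = 0.17), without JQ1-VHL replicate 1 (-1.02, adjusted p = 0.20), and when only the 2 groups were fitted (adjusted p = 0.074). With IBET151-VHL 4 of 7 fell, against 83.9%: SREBF2, HMGCS1, CYP51A1 and SQLE.

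HMGCS1 had 516, 2147 and 456 nuclear T>C reads with DMSO and 61.3, 324 and 170 with IBET151-VHL (-2.40, SE 0.68, adjusted p = 0.00066). CYP51A1 had 230, 612 and 207, and 29.5, 130 and 80.6 (-2.17, SE 0.68, adjusted p = 0.0022), and SQLE 198, 761 and 146, and 35.7, 180 and 69.4 (-1.86, SE 0.68, adjusted p = 0.0083). HMGCS1 and CYP51A1 did not overlap DMSO and SQLE did. With JQ1-VHL HMGCS1 had 87.1, 799 and 620 (-1.18, adjusted p = 0.11), CYP51A1 46.2, 261 and 231 (-1.12, adjusted p = 0.13) and SQLE 57.6, 332 and 280 (-0.67, adjusted p = 0.36). With the run as a block these passed with JQ1-VHL too (HMGCS1 -1.76, CYP51A1 -1.60 and SQLE -1.28), and HMGCS1 also passed with the replicate block (adjusted p = 0.039) and without JQ1-VHL replicate 2 (-1.77, adjusted p = 0.033). With IBET151-VHL the SQLE call was lost without IBET151-VHL replicate 1 (-1.32, adjusted p = 0.10) or DMSO replicate 2 (-1.14, adjusted p = 0.16), and the CYP51A1 call without IBET151-VHL replicate 1 (-1.58, adjusted p = 0.0505). Within runs A and B HMGCS1 differed from DMSO by -2.55 and -1.42 with JQ1-VHL and by -3.05 and -2.73 with IBET151-VHL, CYP51A1 by -2.29 and -1.22 and by -2.92 and -2.23, and SQLE by -1.76 and -1.20 and by -2.44 and -2.07.

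IDI1, INSIG1 and FDFT1 had the smallest nuclear differences. IDI1 had 239, 1012 and 322 nuclear T>C reads with DMSO, 187, 1085 and 1155 with JQ1-VHL and 145, 884 and 472 with IBET151-VHL, or 0.53 (SE 0.68, adjusted p = 0.47) and -0.12 (SE 0.68, adjusted p = 0.87). INSIG1 had 322, 1926 and 316, then 198, 1157 and 809 (-0.03, adjusted p = 0.97) and 133, 626 and 439 (-0.81, adjusted p = 0.26). FDFT1 had 326, 741 and 234, then 102, 568 and 600 (-0.23, adjusted p = 0.76) and 99.4, 330 and 206 (-1.02, adjusted p = 0.15). These are wide intervals: the 95% interval for IDI1 with IBET151-VHL runs from -1.45 to 1.21, and for INSIG1 from -2.14 to 0.53. Beside the median change of all genes, -1.92 with JQ1-VHL and -3.12 with IBET151-VHL, they are high. With IBET151-VHL 5.04% of genes had a higher change than IDI1, 8.43% than INSIG1, 10.0% than FDFT1, 20% than SQLE, 25.4% than CYP51A1, 30.5% than HMGCS1 and 60.6% than SREBF2. With JQ1-VHL the order was the same, from 4.38% for IDI1 to 45.7% for SREBF2.

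**Figure D3:**
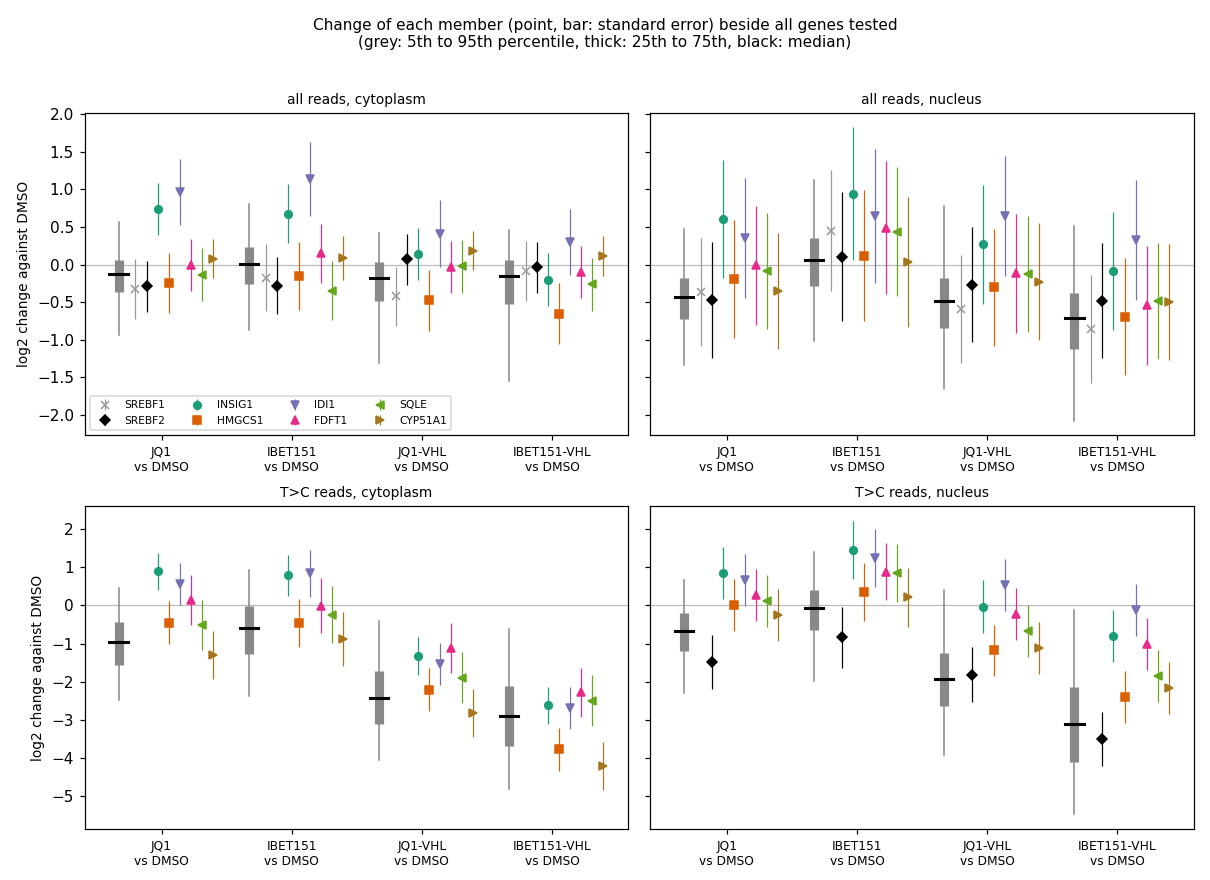
Change of each member against DMSO (y axis: log2 units, point with its standard error) for 4 compounds, in all reads (above) and T>C reads (below) of the cytoplasm (left) and nucleus (right), beside all genes tested (grey bars: 5th to 95th and 25th to 75th percentile, black: median). In nuclear T>C reads with IBET151-VHL the members run from -3.50 (SREBF2) to -0.12 (IDI1), with 6 of 7 above the median of -3.12.

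Nuclear DMSO replicate 3, with its low T>C share of 2.25%, moved with these values. Without replicate 3 the same 5 tests passed, and INSIG1 was -0.47 with JQ1-VHL and -1.24 with IBET151-VHL. Leaving out DMSO replicate 2 instead left 3 passing tests. The share of all genes that passed in these fits is not given here, so these counts have no background. Runs A and B do not hold DMSO replicate 3. Within them IDI1 differed from DMSO by -0.35 and 0.10 with JQ1-VHL and by -0.72 and -0.19 with IBET151-VHL. INSIG1 differed by -0.70 and -0.73, and by -1.27 and -1.62. SREBF2 differed by -3.58 and -1.72, and by -3.89 and -3.50. The medians of all genes in the same pairs of libraries were -2.95 and -1.93, and -3.40 and -3.35. IDI1 was thus the member closest to 0 and SREBF2 the member farthest from it in all 4 pairs, and 6 of 7 members lay above the median in 3 pairs and 7 of 7 with JQ1-VHL in run B. With the run as a block, 12 nuclear tests against DMSO passed in place of 5, among them INSIG1 (-1.38) and FDFT1 (-1.52) lower with IBET151-VHL and SREBF2 lower with JQ1, whereas IDI1 passed with none of the 4 compounds. The block also raised the background, to 83% lower with JQ1-VHL and 88.9% with IBET151-VHL.

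**Figure D4:**
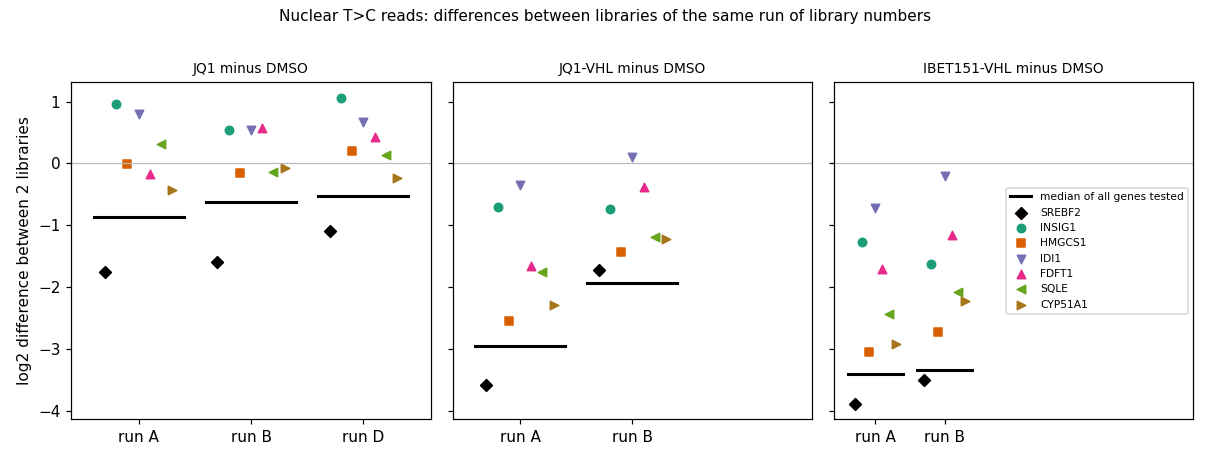
Difference in nuclear T>C reads between a treated and a DMSO library of the same run of library numbers (y axis: log2 units), a symbol per member and a black line at the median of all genes tested, for JQ1 (runs A, B and D), JQ1-VHL and IBET151-VHL (runs A and B). SREBF2 (black diamonds) is the lowest member in all 7 pairs, and IDI1 is the highest in the 4 pairs with a VHL compound.

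With IBET151-VHL the direction for 6 of 7 members turned when values were set relative to other genes. Median-ratio scaling takes the typical gene as unchanged, and with it the median of all genes moved to -0.29 with JQ1-VHL and -0.54 with IBET151-VHL. IDI1 was then higher than in DMSO nuclei by 2.29 (adjusted p = 0.0012) and 2.88 (adjusted p = 4.4e-05), INSIG1 by 1.73 (adjusted p = 0.014) and 2.20 (adjusted p = 0.00088), and FDFT1 by 1.53 (adjusted p = 0.0028) and 1.98 (adjusted p = 8.8e-05). SQLE (1.13, adjusted p = 0.021) and CYP51A1 (0.82, adjusted p = 0.037) passed as higher with IBET151-VHL alone. On that scale 6.02% of genes passed as higher with JQ1-VHL and 13.9% with IBET151-VHL, against 3 of 7 and 5 of 7 members. SREBF2 passed in neither (-0.07 and -0.55).

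With the parent inhibitors 0 of 7 members passed in the nucleus (2.41% of genes did with JQ1 and 1.3% with IBET151). SREBF2 had 78.6, 159 and 48.1 nuclear T>C reads with JQ1 and 183 and 95.6 with IBET151 against 267, 481 and 103, or -1.48 (SE 0.72, adjusted p = 0.32) and -0.84 (SE 0.80, adjusted p = 1). Within runs A, B and D its difference with JQ1 was -1.75, -1.59 and -1.09, and with the run as a block it passed (adjusted p = 0.032). INSIG1 had 626, 2797 and 661 with JQ1 and 2233 and 1121 with IBET151 against 322, 1926 and 316, or 0.85 (adjusted p = 0.58) and 1.44 (adjusted p = 0.64). Within the same runs INSIG1 differed by 0.96, 0.54 and 1.06, and passed with the run as a block (adjusted p = 0.0486), where 0.813% of genes passed as higher and 10.8% as lower. IDI1 lay at 0.80, 0.54 and 0.67 in these runs and did not pass. IBET151 has no library in run A or D. Within run B the 7 members differed between IBET151 and DMSO by -1.39 to 0.38, with 4 below 0 and a median of -0.57 over all genes. In that run INSIG1 had 2233 with IBET151 against 1926 with DMSO. The comparisons of all 4 compounds share the DMSO libraries.

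INSIG1 can be set beside its paralogue INSIG2, which also retains SCAP and is not a classical SREBP target. INSIG2 had 65.8, 145 and 74.7 nuclear T>C reads with DMSO and 3.35, 3.79 and 2.22 with JQ1-VHL, which are 71, 82 and 39 reads against 5, 2 and 1. With IBET151-VHL it had 1, 0 and 0 reads. INSIG2 fell with both (adjusted p = 2.1e-05 and 1.1e-10 by limma), as 60.5% and 83.9% of genes did. It was named for a p among the smallest of its list in these comparisons, so that choice favoured a strong fall. INSIG1 passed with neither in the main fit, but passed as lower with IBET151-VHL with the run as a block. The difference between the paralogues was not tested.

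The fractions differed most for IDI1. Its nuclear change with IBET151-VHL exceeded its cytoplasmic change by 2.57 log2 units (SE 0.92, adjusted p = 0.031), the only member to pass of 28 such tests on T>C reads, against 1.57% of 12067 genes that passed in that direction and 23.7% in the other. CYP51A1 (2.04, adjusted p = 0.10) and INSIG1 (1.81, adjusted p = 0.13) lay on the same side, and SREBF2 on the other (-1.40, adjusted p = 0.32). The IDI1 call was lost without nuclear DMSO replicate 1 or 3, cytoplasmic DMSO replicate 2, nuclear IBET151-VHL replicate 2 or 3 or cytoplasmic IBET151-VHL replicate 1, and in edgeR and DESeq2. In all reads 0 of 8 members differed between fractions in their response to any compound, against at most 0.00692% of genes. These limma fits took the nuclear and cytoplasmic parts of a culture as separate libraries, so their p-values do not use that pairing.

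The share of T>C reads needs no ERCC scale, since both of its terms come from 1 library. In the cytoplasm 5 of 6 members fell with JQ1-VHL (74% of genes fell) and 6 of 6 with IBET151-VHL (83.8%). CYP51A1 shares were 1.25%, 1.72% and 1.43% with DMSO, 0.413%, 0.823% and 0.436% with JQ1, 0.714% and 0.726% with IBET151 and 0%, 0.168% and 0% with IBET151-VHL. INSIG1 shares were 2.34%, 2.69% and 2.20% with JQ1 and 0.173%, 0.628% and 0.506% with IBET151-VHL. In the nucleus 0 of 7 members fell with JQ1-VHL (20.7%) and 4 with IBET151-VHL (69.7%): SREBF2 (-3.03, adjusted p = 0.00092), HMGCS1 (-1.71, adjusted p = 0.0098), CYP51A1 (-1.67, adjusted p = 0.014) and SQLE (-1.38, adjusted p = 0.046). IDI1 had 6.50%, 9.36% and 7.15% with IBET151-VHL against 14.3%, 17.0% and 4.52%, a difference within runs A and B of -1.14 and -0.86 log2 units, while SREBF2 went from 4.76%, 3.97% and 0.963% to 0.505%, 0.389% and 0.150%. Against their parents, 3 of 6 shares fell with JQ1-VHL and 6 of 6 with IBET151-VHL in the cytoplasm (36.5% and 63.7% of genes), and 0 of 7 and 5 of 7 in the nucleus (1.32% and 60.4%). Without nuclear DMSO replicate 3, whose shares were low, 8 tests against DMSO passed in place of 4, and without DMSO replicate 1 or 2 only 1 did. How many of all genes passed in those fits is not given here. With the run as a block 13 tests passed. That block also raised the share of genes that fell, to 72.5% with JQ1-VHL and 83.7% with IBET151-VHL. Within runs A and B all 7 members' nuclear shares were below DMSO with both VHL compounds. The medians of all genes in the same pairs were -2.12 and -1.56 log2 units with JQ1-VHL and -2.46 and -2.70 with IBET151-VHL. Above those medians lay 5 and 6 of the 7 members with JQ1-VHL, and 6 in each run with IBET151-VHL.

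**Figure D5:**
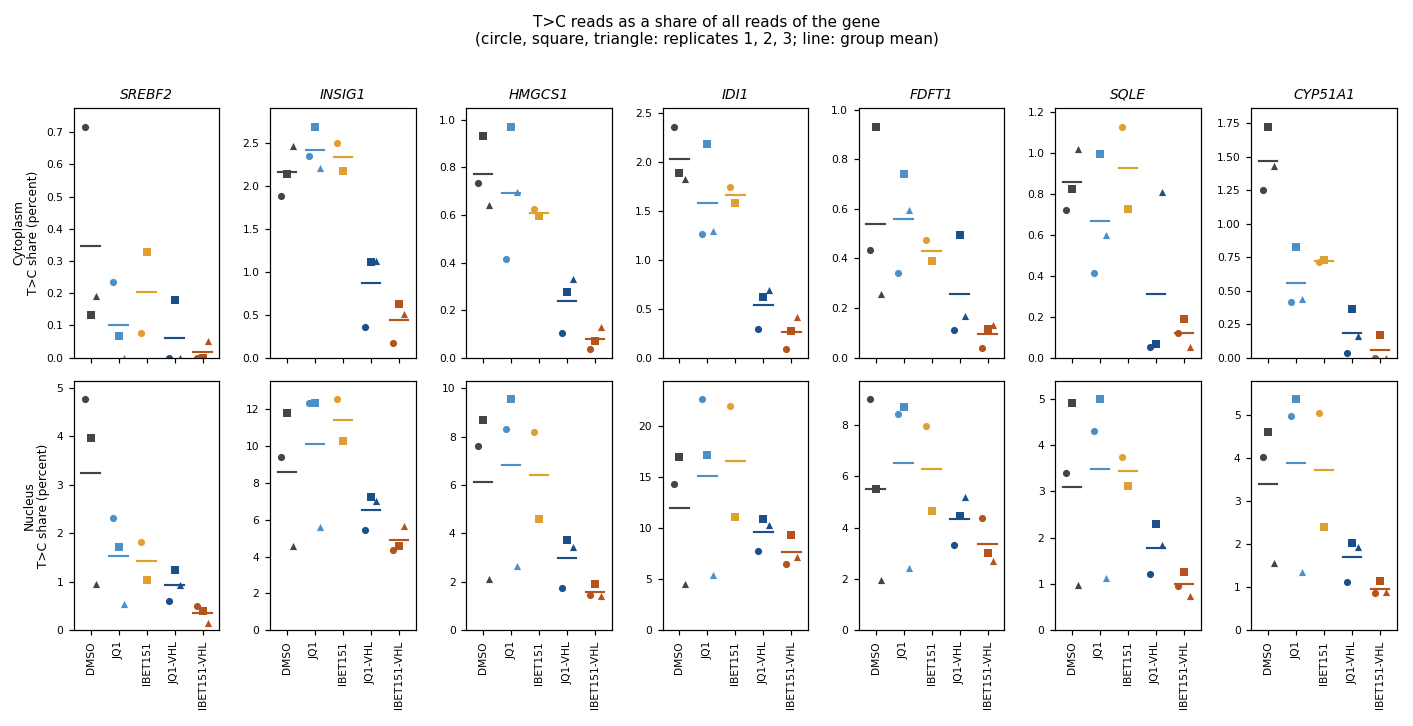
T>C reads as a percentage of all reads of the gene in each library (y axis: percent, linear from 0, a separate scale per panel), cytoplasm above and nucleus below, a symbol per library and a line at each group mean. In the nucleus DMSO and JQ1 replicate 3 (triangles) lie far below the other libraries of their groups, for example 4.52% against 14.3% and 17.0% for IDI1 with DMSO.

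Against their parent inhibitors the VHL compounds were compared at the same time of 3 h. In the cytoplasm 6 of 6 members fell with IBET151-VHL against IBET151 (69.1% of genes), from -2.25 for SQLE to -3.53 for IDI1, and 4 of 6 with JQ1-VHL against JQ1 (46.5%): INSIG1 (-2.22), IDI1 (-2.10), HMGCS1 (-1.75) and CYP51A1 (-1.51). The CYP51A1 call was lost in edgeR (adjusted p = 0.089) and DESeq2 (adjusted p = 0.11), with a pseudocount of 0.5, without the filter, with only the 2 groups fitted and without most single libraries (-0.88 without JQ1-VHL replicate 1 and -1.30 without JQ1 replicate 2). The HMGCS1 call was lost without JQ1-VHL replicate 1 (-1.19) or JQ1 replicate 2 (-1.23). In the nucleus 6 of 7 fell with IBET151-VHL against IBET151 (81.4%), all but IDI1 (-1.37, adjusted p = 0.086), and 0 of 7 with JQ1-VHL against JQ1 (13%; 0 also at an unadjusted p under 0.05), with intervals such as -2.22 to 0.46 for INSIG1. Replicates 3 of JQ1 and JQ1-VHL lie in different runs. Within run A the 7 members differed between them by -2.54 to -1.15 and within run B by -1.27 to -0.12. With the run as a block 5 passed as lower, HMGCS1 (-1.77), INSIG1 (-1.45), SQLE (-1.39), CYP51A1 (-1.36) and FDFT1 (-1.01), as 61.3% of genes did. For IBET151-VHL against IBET151 the 7 members differed by -2.12 to -0.41 within run B and by -2.99 to -0.89 within run C. Without nuclear IBET151 replicate 1, which leaves 1 IBET151 library, fewer members passed. The share of all genes in that fit is not given here. In all reads 0 of 8 differed in either pair and either fraction; 4.23% and 7.91% of cytoplasmic and 0.298% and 0.541% of nuclear genes did.

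Parents were also compared with each other, and VHL compounds with each other. Between IBET151 and JQ1, 0 members and 0% of genes differed in any of the 4 readouts by limma. Between IBET151-VHL and JQ1-VHL, 0 of 6 members passed in cytoplasmic T>C reads (3.03% of genes passed as lower) and 0 of 7 in nuclear T>C reads (11%). The largest nuclear difference was that of SREBF2, -1.68 with a 95% interval from -3.09 to -0.28 (adjusted p = 0.095), and the largest cytoplasmic one that of HMGCS1, -1.55 from -2.70 to -0.41 (adjusted p = 0.13). All members tested in T>C reads lay lower with IBET151-VHL in both fractions. Their median difference was -1.05 in the nucleus, beside -1.12 over all genes, and -1.22 in the cytoplasm, beside -0.44. Without nuclear JQ1-VHL replicate 1 all 7 nuclear differences passed. The share of all genes that passed in that fit is not given here, so this count cannot be set against the 11%. At an unadjusted p under 0.05, 4 cytoplasmic and 1 nuclear difference between the VHL compounds passed. How many of all genes did so is not given here. Since the doses are unknown, these compare the treatments as applied.

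The other genes of the pathway, listed by role, were also lower or did not pass. In nuclear T>C reads 60.5% of all genes fell with JQ1-VHL and 83.9% with IBET151-VHL. Of 17 other cholesterol synthesis enzymes, 7 fell with JQ1-VHL and 12 with IBET151-VHL, 0 rose, and their median changes were -1.29 and -2.23. An example is LBR, a sterol reductase of the nuclear envelope, which changed by -2.06 and -4.10. Of 9 genes of SREBP processing and sterol sensing, 7 and 9 fell, with medians of -2.60 and -3.69, among them the SREBP protease MBTPS1 (-2.61 and -4.38) and RNF139, a sterol-sensing ubiquitin ligase (-2.73 and -3.80). Of 11 tested genes of sterol uptake and transport, 6 and 8 fell (medians -1.64 and -2.79), including STARD3, a late endosomal cholesterol carrier, which had 120, 119 and 24 T>C reads with DMSO, 15, 19 and 18 with JQ1-VHL and 0, 5 and 0 with IBET151-VHL. Of 9 tested fatty acid synthesis genes, 3 and 7 fell (medians -1.14 and -2.19), and of 5 tested efflux and esterification genes, 4 and 5. All genes had medians of -1.92 and -3.12. In all reads 0 genes of these lists rose, and at most 1 per list fell in any comparison with DMSO.

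In the cytoplasm the members varied more between replicates than most genes. In cytoplasmic all reads the SD within groups was 0.67 log2 units for IDI1, above 97.4% of 9303 genes with a mean of at least 100, and 0.61 for HMGCS1 (96.1%), 0.52 for INSIG1 (92.3%) and 0.37 for CYP51A1 (75.7%), beside a median of 0.27. In the nucleus IDI1 (1.14, above 88.8% of 10496 genes) was also high, but SQLE (0.83, 42.4%), CYP51A1 (0.86, 47.8%) and SREBF2 (0.76, 30.2%) lay below the median of 0.87. The deviations went together: over 14 cytoplasmic libraries the correlation between 2 members' deviations from their group means had a median of 0.67 and ranged from 0.16 to 0.96, a description of libraries that share their scaling. The genes whose cytoplasmic pattern over 14 libraries was most like the members' mean, of 9293 ranked, were HEATR5B (Pearson r = 0.95), PCNX1 (0.95), SBK1 (0.95), ARFGEF2 (0.94) and OPA1 (0.94). For INSIG1 alone they were TRIM4 (0.96), OTUD3 (0.94) and DBF4 (0.93), for SREBF1 MYH14, ALOX15 (both 0.88) and PLXNA3 (0.86), and for SREBF2 SLC1A7, RALGAPB and VOPP1 (all 0.95).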

How the data were processed

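The authors deposited 2 tables of gene read counts per library, all reads and T>C reads, per the file headers and names scaled to ERCC RNA, which the labels' protocols say was added per mass of RNA. A scaled value is a signal: dividing a library's values by their smallest spacing, which both deposited tables share, gave whole reads for 100% of values (within 0.001). Per the submitters' processing notes, bcl2fastq, Trimmomatic 0.39, HISAT2, HTSeq and DESeq2 were used, and the builds named there are GRCh37, hg19 and dm3. The calling of T>C reads is not given in the sources used here, and no library without 4-thiouridine was analysed, so the background of conversions is unknown. Rows without a symbol (479 and 245) were tested but not named.

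To be fitted, a gene had to reach 10 scaled reads in 2 or more libraries, or 5 scaled reads among T>C reads. Log2(value + 1) was fitted with limma 3.58.1 in R 4.3.3 (trend option), a scale which understates changes of low genes, over the 14 libraries of a fraction or, for differences between fractions, over all 28. The T>C share was fitted as log2((T>C reads + 0.5)/(all reads + 1)). Benjamini-Hochberg adjustment ran over all genes of a comparison, and an adjusted p under 0.05 passed. Every printed adjusted p is limma's unless another tool is named. Scripts were tested on simulated data.

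Alternatives were edgeR 4.0.16 and DESeq2 1.42.0 on the recovered reads, median-ratio scaling, other pseudocounts and filters, fits of only the groups compared, leaving out each library, and a block for the replicate number or for the run. Same-numbered libraries deviated together in all reads for the 4 treatments other than IBET151 (lowest correlation 0.20 in the cytoplasm and 0.16 in the nucleus) and in T>C reads only for nuclear DMSO and JQ1 (0.23). IBET151 numbers did not pair.

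The members and lists were chosen with earlier results of these data known. Named genes are the 8 members, up to 4 of each list with the smallest p in the VHL comparisons in nuclear T>C reads (further limited here to those the text needs), and the genes most correlated with the members (mean of at least 100).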

Additional observations from a re-analysis of the deposited data

Results flagged for a closer look

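IDI1 is listed because its response differed between the fractions: the change in T>C reads with IBET151-VHL was 2.57 log2 units higher in the nucleus than in the cytoplasm (limma interaction term, SE 0.92, adjusted p = 0.031, 1.57% of 12067 genes passed in that direction). In the cytoplasm IDI1 had 2.69, 11.2 and 10.7 scaled T>C reads with IBET151-VHL against 28.2, 117 and 40.9 with DMSO, and in the nucleus 145, 884 and 472 against 239, 1012 and 322. Nuclear DMSO replicate 3, with T>C reads at 2.25% of its total, is among the libraries without which IDI1 did not pass. The part of that library in the result was not tested further. The fit did not pair the 2 fractions of a culture.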

How the results depend on the processing

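Median-ratio scaling, which moved the median of all genes in T>C reads, was the only alternative that reversed a call. With it 1 cytoplasmic T>C test against DMSO passed in place of 11 and 0 against parents in place of 10; in nuclear T>C reads 8 passed against DMSO in place of 5 and 2 against parents in place of 6; 0 members differed between DMSO fractions in T>C reads in place of 7, and 2 nuclear tests of all reads passed in place of 0. Of 307 member comparisons, 257 kept direction and side of the threshold under it and 23 reversed, all in T>C reads. These were, in the cytoplasm, with JQ1-VHL IDI1 (0.60) and INSIG1 (0.85), with IBET151-VHL IDI1 (0.10), FDFT1 (0.39) and INSIG1 (0.30), and against IBET151 FDFT1 (0.16). In the nucleus they were, with JQ1-VHL, FDFT1 (1.53) and INSIG1 (1.73), and with IBET151-VHL CYP51A1 (0.82), IDI1 (2.88), FDFT1 (1.98), SQLE (1.13), HMGCS1 (0.60) and INSIG1 (2.20). With IBET151-VHL against IBET151 they were CYP51A1 (0.62), IDI1 (1.65), FDFT1 (1.11), SQLE (0.28), HMGCS1 (0.25), INSIG1 (0.77) and SREBF2 (0.29), and between DMSO fractions IDI1 (-0.26) and INSIG1 (-0.72).

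With the replicate block, the pairing of libraries by number, 3 nuclear tests of all reads passed against DMSO and 7 against parents in place of 0 (IBET151 numbers do not pair with the others), 1 nuclear T>C test between VHL compounds or parents in place of 0, and 4 differences between fractions in place of 1. That block raised the background as well. Of 14417 genes in nuclear all reads, 6300 passed as lower for IBET151-VHL against DMSO and 9341 against IBET151, in place of 528 and 73. With the run as a block, 5 cytoplasmic and 8 nuclear tests of all reads passed against DMSO and 1 cytoplasmic test against parents, each in place of 0. In nuclear T>C reads 12 (against DMSO), 11 (against parents) and 5 (within a kind of compound) passed in place of 5, 6 and 0, in cytoplasmic T>C reads 2 within a kind in place of 0, and for nuclear shares 13 and 14 in place of 4 and 5. With the run as a block, 83% and 88.9% of genes fell in nuclear T>C reads with JQ1-VHL and IBET151-VHL against DMSO. For nuclear shares 72.5% and 83.7% did, and in nuclear T>C reads 61.3% fell with JQ1-VHL against JQ1. Backgrounds of the other counts are not given here. In edgeR and DESeq2, 2 cytoplasmic T>C tests within a kind passed in both, 1 nuclear test in DESeq2, and 0 differences between fractions in both; with a pseudocount of 5, 2 differences between fractions passed. The cause of these changes was not tested.

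Leaving out each library gave 0 to 2 passing tests in cytoplasmic all reads against DMSO (2 without DMSO replicate 2) and 0 to 2 within a kind in cytoplasmic T>C reads (2 without JQ1-VHL replicate 1). In nuclear T>C reads it gave 3 to 6 against DMSO (3 without IBET151-VHL replicate 1 or DMSO replicate 2), 2 to 7 against parents (2 without IBET151 replicate 1) and 0 to 7 within a kind (7 without JQ1-VHL replicate 1). Differences between fractions numbered 0 to 3 (3 without nuclear IBET151-VHL replicate 1). For nuclear shares it gave 1 to 8 against DMSO (1 without DMSO replicate 1 or 2) and 0 to 8 against parents (0 without IBET151 replicate 1, 8 without JQ1 replicate 3). The shares of all genes that passed in these fits are not given here, so the counts have no background beside them. Depth limited cytoplasmic T>C reads most, where IBET151-VHL values rest on a few reads per gene.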
